A study of Mus musculus with 4 samples.

Results

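Spots were picked from spatial transcriptomics of mouse dorsal skin by their UMIs (unique molecular identifiers, which count captured RNA molecules) of 8 genes. These were taken as markers of the late hair shaft. The genes were *Gm11596*, *Gm11595*, *Gm11568*, *Gm11563*, *A030005L19Rik*, *A030005K14Rik*, *Krtap4-9* and *Krtap28-13*. The score of a spot was the mean over these genes of the natural log of 1 plus 10000 times the gene's UMIs divided by all UMIs of the spot. The top 10% of kept spots in each of 4 slices, 642 of 6411 spots, are called high-sulfur spots here. This is a working name, since by family number *Krtap4-9* is an ultra-high-sulfur gene and *Krtap28-13* had no class assigned. Whether the spots lie over the late hair shaft was not tested, and hair shaft markers outside the KAP genes were higher only in part, as given below. They numbered 165, 175, 156 and 146 in slices 1 to 4, and the other 5769 kept spots served as the comparison.

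The study traced cells of the *Krox20* lineage, and the slides were made to see where *Krox20* and its Cre allele are expressed. All tissue came from 3 mice of the genotype *Krox20-CreERT; R26-tdTomato*, which had received 4-hydroxytamoxifen at P2 and were taken at P38, so that genotype and treatment are common to all tissue and no untreated group enters. The study's text was read as 1 section of each mouse on every slice, and the 4 slices are treated here as technical replicates. Its figure legend, where a section stands for 1 mouse and 4 skin samples are named, leaves the layout unsettled. Which spots belong to which mouse is not given in the sources used here. The authors left out 1 section, named as the fourth, for its distorted structure, and whether it is in the library labelled as the 4th slice is not given in the sources used here. All 4 slices were kept, and without slice 4 686 genes were higher and 692 lower than in all other spots, against 659 and 748 with it. Values are given as the mean ± SD of 4 slices, which on the reading used here does not cover the spread between mice.

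The hair shaft is built from keratinocytes that leave the proliferating matrix at the base of the follicle and move up toward the skin surface while they fill with keratin. Hair keratins form the filaments, and keratin-associated proteins (KAPs) form the matrix that glues the filaments together through disulfide bonds. KAPs fall into high-sulfur and ultra-high-sulfur families, which are rich in cysteine, and high-glycine-tyrosine families. Around the shaft lie the inner root sheath, the companion layer and the outer root sheath, and a Visium spot is wide enough to take in several of these layers at once.

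The score genes describe how the spots were chosen and were given no test. *Gm11563* was present at 3789, 3775, 4502 and 3689.8 CPM (UMIs of the gene per 1000000 UMIs of the same spots) in slices 1 to 4, and at 322, 256, 276 and 251 CPM in the other spots. *Gm11596*, which lies in the same KAP gene cluster, was present at 872, 923, 1386 and 935 CPM against 55.0, 51.1, 60.3 and 55.9 CPM. *Krtap28-13* was present at 588, 639.9, 600.1 and 577 CPM against 52.9, 45.2, 48.8 and 49.5 CPM. All 8 genes stood higher in the chosen spots of every slice, as the rule requires, and *Gm11596* was highest in slice 3. A UMI of *Gm11596* was found in 97.4% of high-sulfur spots and in 41.5% of the other spots, so the RNA was found in much of the tissue outside the chosen spots too. The limit itself lay in a continuous range of scores. The lowest score inside and the highest outside were 1.512 and 1.510 in slice 1, 1.564 and 1.560 in slice 2, 1.563 and 1.559 in slice 3, and 1.445 and 1.442 in slice 4. Median scores were 1.94, 2.06, 2.10 and 1.97 inside and 0.447, 0.397, 0.421 and 0.390 outside.

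The score genes lie in KAP gene clusters on 2 chromosomes. In the GENCODE M21 annotation of GRCm38, *Gm11563* (chr11:99657949-99658960), *Gm11595* (chr11:99771714-99772913), *Krtap4-9* (chr11:99785200-99786258), *Gm11596* (chr11:99792389-99793467) and *Gm11568* (chr11:99857917-99859061) share a cluster. *A030005L19Rik* (chr1:82913325-82914130), *A030005K14Rik* (chr1:83058286-83059378) and *Krtap28-13* (chr1:83060930-83061921) share another. All are annotated as protein coding. KAP genes of a family are close copies of each other, so how UMIs were divided among them is uncertain. Promoters of 6 of the 8 genes were found in the RefSeq table for GRCm38.p6. Of these promoters, 3 are shown. Those of *Gm11595* and *Krtap4-9* were alike over much of their length, and that of *Krtap28-13* shared with them the run TATAAAAGGGG. Each is given as the 100 bases that end at the base before the RefSeq start, 5′ to 3′ on the gene's strand, with the letters TATAAA in capitals. The windows of *Gm11595* (chr11:99772914-99773013, minus strand), *Krtap4-9* (chr11:99785100-99785199, plus strand) and *Krtap28-13* (chr1:83060830-83060929, plus strand) read:
Gm11595: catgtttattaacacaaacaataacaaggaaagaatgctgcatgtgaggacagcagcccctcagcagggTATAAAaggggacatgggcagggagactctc
Krtap4-9: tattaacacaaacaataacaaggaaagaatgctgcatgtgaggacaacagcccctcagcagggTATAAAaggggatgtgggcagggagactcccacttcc
Krtap28-13: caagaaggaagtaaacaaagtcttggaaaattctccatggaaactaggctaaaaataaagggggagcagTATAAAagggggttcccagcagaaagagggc
The TATAAA of *Gm11596*, *Gm11595* and *Krtap28-13* began 31 bases before the start, that of *Gm11568* 30 bases, that of *Krtap4-9* 37 bases and that of *Gm11563* 53 bases before it. The run TATAAAAGG was present in the 250 bases before the start of all 6 genes and of 0.548% of the 27025 genes in the table. A longer run, AAACAATAACAAGGAAA, was present there in 8 of the 27025 genes. These 8 include the score genes *Gm11596*, *Gm11595*, *Gm11563* and *Krtap4-9*, and also *Krtap4-6* and *Krtap4-13*. TATAAA on either strand was found in 33 of 40 matched *Krtap* genes that were higher than in early shaft spots (82.5%), in 9.31% of genes tested there and in 15.7% of all promoters. The LEF1/TCF core CTTTGA was in none of the 6 score genes, in 32.5% of those *Krtap* genes and in 18.2% of all promoters, and the HOX13 core CGTAAA was in 0% of both gene groups and in 3.46% of all promoters. These are matches of letters on either strand and not binding sites.

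High-sulfur spots held slightly fewer UMIs and fewer kinds of RNA than the rest. Their median UMIs per spot were 13651, 11342, 11770 and 11318 against 14831.5, 12101.5, 11959 and 11713.5, a log2 difference of -0.07 ± 0.04 that was below 0 in 4 of 4 slices (exact sign-flip test over slices, p = 0.13, the smallest that 4 slices allow). After each spot was thinned to 5500 UMIs, members held 2004 ± 106 genes and other spots 2206 ± 50.5, a difference of -201 ± 64.1 in 4 of 4 slices (exact sign-flip test, p = 0.13). Spots below 5500 UMIs, 35 members and 528 others, were left out of this count. The total UMIs of a spot are the divisor of the score, so the rule itself used the depth that was compared. KAP and score genes also take up part of the 5500 UMIs, so the count of genes is tied to the choice too. Both differences are therefore a description of the chosen spots. KAP and score genes together took 15.6%, 12.5%, 13.2% and 11.7% of the UMIs in members and 2.74%, 1.91%, 1.74% and 1.55% in the other spots. Slice 1, the deepest slice, had the highest share in both, and the ranges did not overlap.

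High-sulfur spots mostly lay in bands that ran along the sections between the epidermis and the base of the follicles. On average, 93.2% ± 2.73 of members touched another member, and 39.1% ± 3.00 of the neighbors of a member were members. A further 3 sets were built by the same top-10% rule, leaving out high-sulfur spots. Early shaft spots (635) were scored on *Krt35*, *Msx2* and *Hoxc13*, with 1 further gene of that score not analysed here. Proliferating matrix spots (640) were scored on *Mki67*, *Top2a* and 5 other cell cycle genes, and inner root sheath spots (584) on *Krt25*, *Krt27*, *Krt28*, *Krt71*, *Krt72*, *Krt73* and *Tchh*. Before members were left out of them, 7 high-sulfur spots also ranked in the top 10% by the early score, 2 by the matrix score and 58 by the inner root sheath score.

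**Figure D1:**
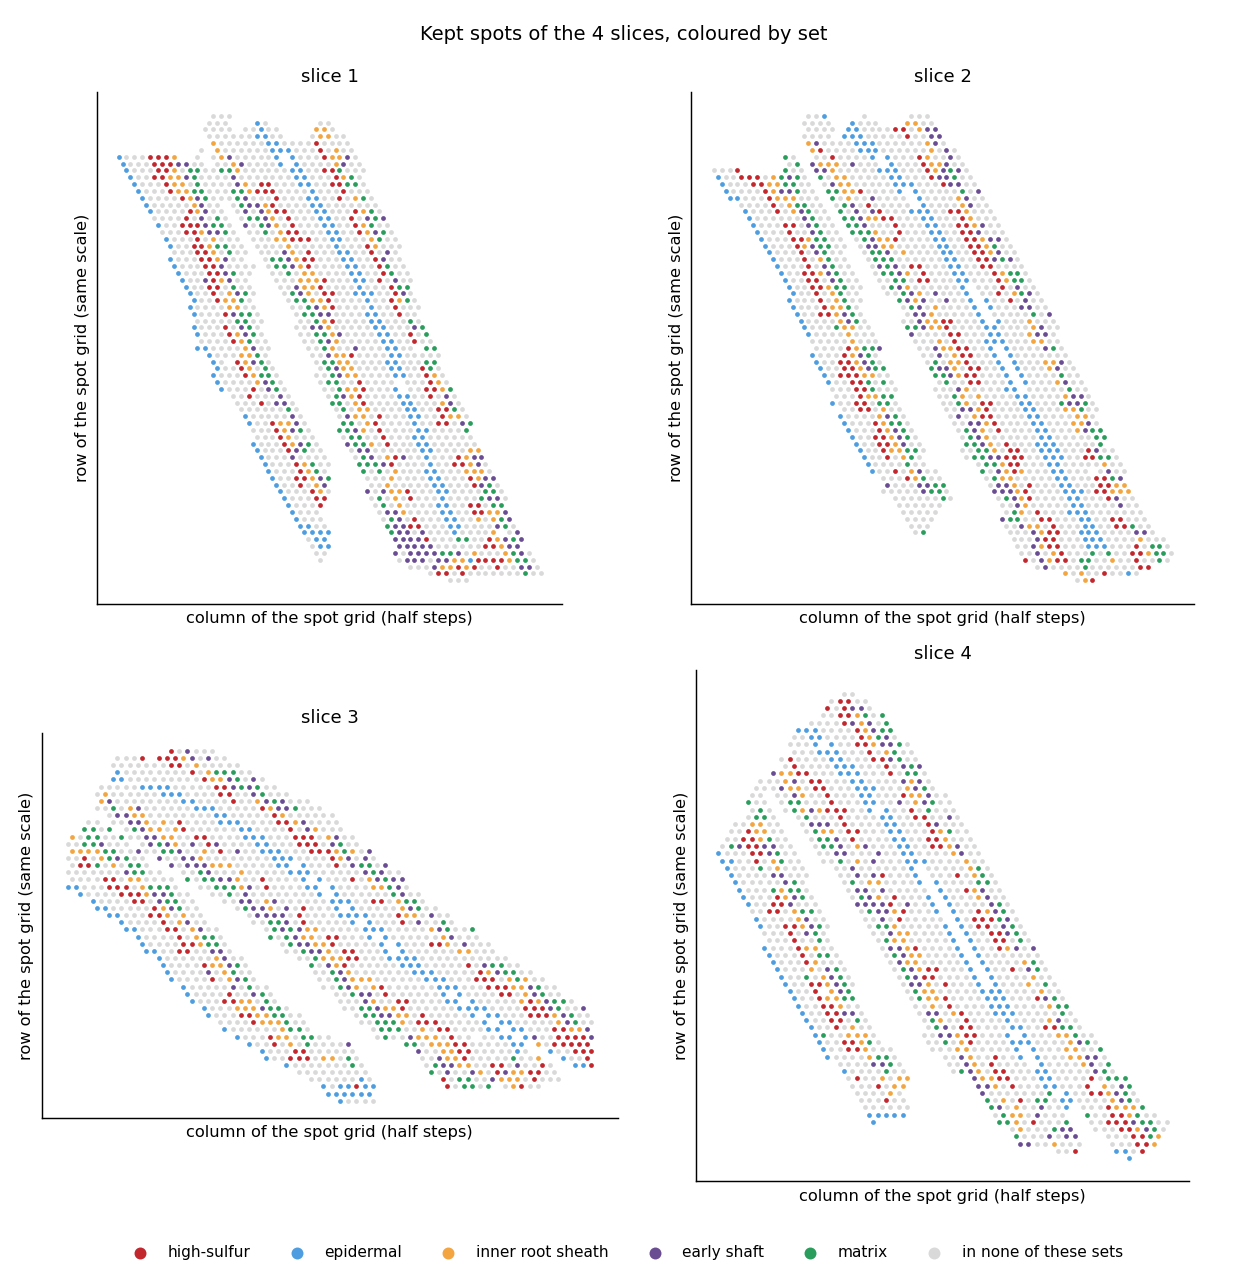
Position of every kept spot on the capture grid in slices 1 to 4, with columns and rows drawn to the same scale and spots colored by set. The 642 high-sulfur spots (red) lie mostly between the epidermal spots (blue) and the early shaft and matrix spots (purple and green), and 2 of them are also epidermal.

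Members lay nearer to the epidermis than the inner root sheath, early shaft and matrix spots. The mean number of grid steps from a member to the nearest epidermal spot (top 10% by *Lor*, *Krt1*, *Krt10*, *Krt77* and *Flg2*) was 3.81, 3.79, 3.33 and 3.64 in slices 1 to 4. Inner root sheath spots lay at 5.07 ± 0.309 steps, early shaft spots at 5.85 ± 0.351 and matrix spots at 6.40 ± 0.369. In each of the 4 slices members were closer to the epidermis than any of these sets. The differences were -1.43 ± 0.101 steps to inner root sheath spots, -2.21 ± 0.163 to early shaft spots and -2.76 ± 0.203 to matrix spots (exact sign-flip tests over 4 slices, p = 0.13 each, the smallest possible). Against all other spots the difference was -0.332 ± 0.0795 steps, and it was -0.123 when epidermal spots were the top 5%.

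**Figure D2:**
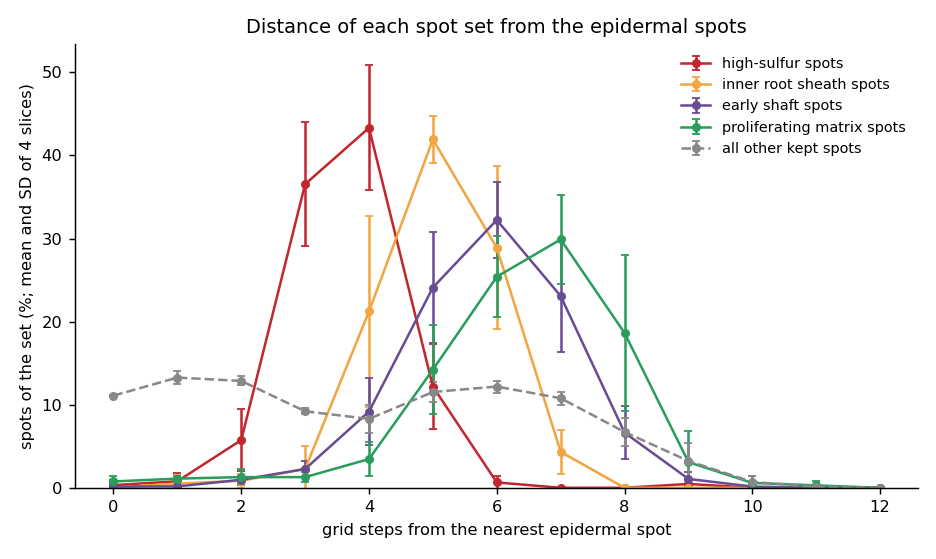
Percent of the spots of each set (y axis, mean and SD of 4 slices) at each number of grid steps from the nearest epidermal spot (x axis). High-sulfur spots peak at 3 to 4 steps, inner root sheath spots at 5, early shaft spots at 6 and matrix spots at 7.

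Nearly all KAP genes outside the score were far higher in high-sulfur spots than in the other spots. Of 55 such genes in the files, 47 passed the filter on low counts, which a gene can pass through the high-sulfur spots alone. The other 8, not tested, were *Krtap1-4*, *Krtap4-13*, *Krtap5-1*, *Krtap5-3*, *Krtap9-5*, *Krtap13*, *Krtap27-1* and *Krtap29-1*. Of the 47 tested, 45 were called higher than in the other spots and 0 lower (edgeR quasi-likelihood test, adjusted p below 0.05 and a log2 fold change of at least 1 in size), with a median log2 fold change of 3.30. Among all 13511 genes tested, 4.88% were called higher and 5.54% lower, and the median was -0.04. The spots were chosen by genes measured in the same libraries, so these tests say that differences recurred between slices, not that the spots were found independently.

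KAP RNA took a large share of the UMIs in members, and the scaling of libraries changed many calls. Log2 fold changes were taken after TMM scaling, which sets the bulk of genes equal between sets, while CPM values are shares of all UMIs. With libraries scaled by size alone, the median of all genes tested went from -0.04 to -0.39 against all other spots, where 363 genes were then higher and 1500 lower in place of 659 and 748. Against early shaft spots the median went from -0.05 to -0.40, with 934 genes higher and 1482 lower in place of 1457 and 567. Against matrix spots 1132 were higher and 2288 lower in place of 1620 and 1223, and against inner root sheath spots 539 and 459 in place of 709 and 307. KAP genes were little moved by this, with 45 of 47 higher than in all other spots and 40 of 47 higher than in inner root sheath spots.

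Most KAP genes were higher also against the early shaft, matrix and inner root sheath spots. Against early shaft spots 46 of 47 were higher and 0 lower, with a median of 4.49, where 13.6% of 10745 genes were higher. Against matrix spots 47 of 47 were higher, with a median of 4.94, where 14.5% of 11147 genes were higher. Against inner root sheath spots 41 were higher and 1 lower, with a median of 2.82, where 6.91% of 10257 genes were higher and 2.99% lower.

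All 3 KAP classes had genes that were higher in high-sulfur spots. Classes were taken from family numbers. Of the ultra-high-sulfur genes (families 4, 5, 9 and 17), 12 of 12 were higher than in inner root sheath spots, with a median log2 fold change of 3.71. Of 15 high-glycine-tyrosine genes, 13 were higher there, with a median of 3.21. Of 15 high-sulfur genes, 11 were higher and 1 lower, with a median of 2.03. Against all other spots the medians were 3.86, 3.61 and 2.96 in the same order, and no class had a gene that was called lower. Differences between classes were not tested.

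**Figure D3:**
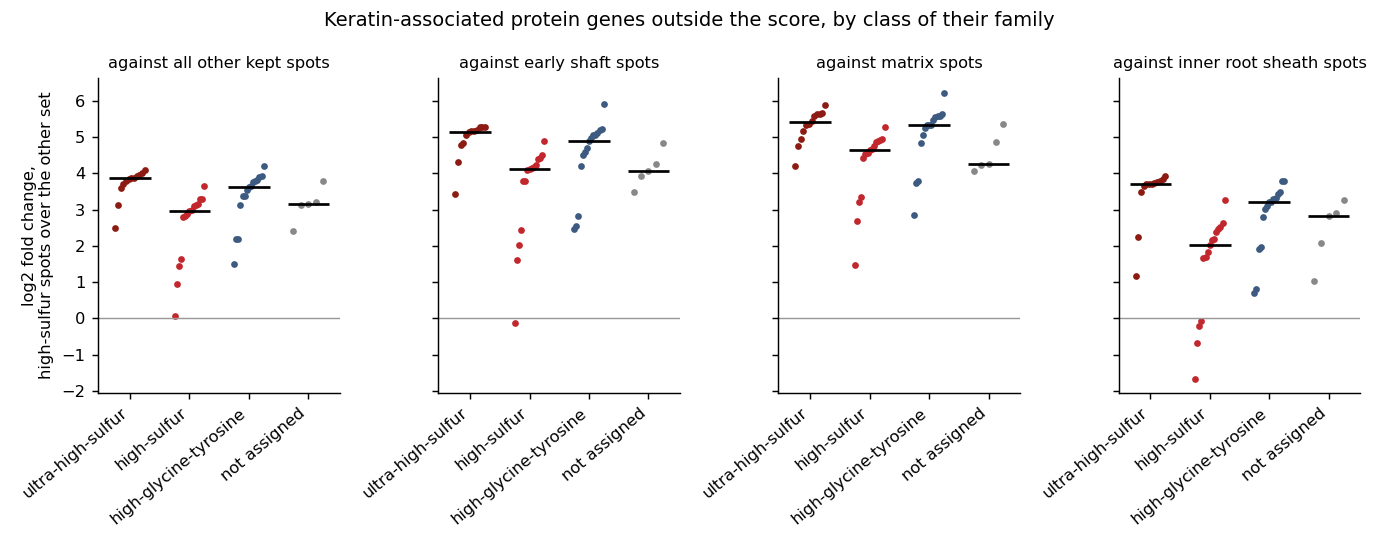
Log2 fold change of each KAP gene outside the score (points; y axis) in high-sulfur spots against 4 other spot sets (panels), by class of its family (x axis), with class medians as black lines. In the panel for inner root sheath spots, ultra-high-sulfur genes lie between 1.16 and 3.94, and high-sulfur genes reach from 3.27 down to -1.66.

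The ultra-high-sulfur gene *Krtap4-8* was at 1753, 2096, 2699 and 2216 CPM in members of slices 1 to 4 and at 154, 154, 173 and 167 CPM in the other spots. Members were far above the other spots in every slice, and the log2 fold change was 4.09 ± 0.06 (SE) (adjusted p = 2.3e-32). *Krtap4-2* was at 3683, 3342, 4058 and 3643 CPM against 349, 248, 279 and 299 CPM, a log2 fold change of 4.00 ± 0.06 (SE) (adjusted p = 2.3e-32). The high-glycine-tyrosine gene *Krtap6-5* was at 4690.2, 3819.6, 4692 and 4407 CPM against 496, 349, 330.5 and 339 CPM, a log2 fold change of 3.90 ± 0.06 (SE) (adjusted p = 1.1e-31). These genes were of similar height in all 4 slices. Others were not. *Krtap19-4*, also high-glycine-tyrosine, was at 44.6, 259, 232 and 196 CPM against 4.88, 21.2, 13.7 and 9.59 CPM, with slice 1 lowest in both groups of spots. *Gm11569*, which lies in the chromosome 11 cluster, was at 394, 114, 182 and 167 CPM against 37.2, 9.43, 13.9 and 16.1 CPM, with slice 1 highest in both. In each slice members were above the other spots, with log2 fold changes of 4.19 ± 0.09 (SE) for *Krtap19-4* and 3.86 ± 0.07 (SE) for *Gm11569*.

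The remaining genes with the largest rises were *Gm11559*, *Krtap4-6*, *Krtap19-9b*, *Krtap5-4* and *Krtap5-5*, with log2 fold changes of 4.00, 3.94, 3.92, 3.92 and 3.86. *Krtap6-3* led the high-glycine-tyrosine genes against inner root sheath spots, with a log2 fold change of 3.79 ± 0.08 (SE). *Gm45337*, a protein-coding gene on chromosome 7 (142143341 to 142144607), was at 473, 462, 464 and 431 CPM against 34.8, 35.7, 33.3 and 41.3 CPM there. Of the ultra-high-sulfur genes, *Krtap4-8* was highest against inner root sheath spots, with a log2 fold change of 3.94, and *Krtap9-1* and *Krtap4-1* were at 3.78 and 3.71.

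Not every KAP gene peaked in these spots. *Krtap11-1*, a high-sulfur KAP, was at 1242, 867, 785 and 747 CPM in members and at 3875, 3144, 2853 and 2718 CPM in inner root sheath spots. The ranges did not overlap, and it was lower in members, with a log2 fold change of -1.66 ± 0.05 (SE) (adjusted p = 6.5e-19). It was not called against early shaft spots, at -0.13 ± 0.08 (SE) (adjusted p = 0.187), and against matrix spots it was higher, at 1.46 ± 0.09 (SE). *Krtap13-1*, *Krtap24-1* and *Krtap26-1* were not called against inner root sheath spots, at -0.68, -0.21 and -0.06. *Krtap7-1* and *Krtap8-1*, high-glycine-tyrosine KAPs of small families, were not called there either, at 0.70 and 0.81, but were higher than in early shaft spots, at 2.47 and 2.53. *Krtap11-1* had no stable direction against all other spots, since its log2 fold change of 0.06 turned to -0.29 when libraries were scaled by their size alone.

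Hair keratins, which form the filaments, separated into genes that were high in these spots and genes that were not. Among type I hair keratins, *Krt34* and *Krt39* were higher than in all other spots and *Krt35* was lower, and the other 5 of 8 tested were not called. Among type II hair keratins, *Krt86*, *Krt81* and *Krt84* were higher and the other 3 of 6 were not called, where 4.88% of all genes tested were higher. *Krt81* lost its call when libraries were scaled by size alone (0.89). In comparison with inner root sheath spots, 4 type I genes (*Krt32*, *Krt31*, *Krt35* and *Krt36*) and 3 type II genes (*Krt82*, *Krt87* and *Krt83*) were lower, and *Krt39* and *Krt84* were higher. Of all genes tested there, 2.99% were lower and 6.91% higher. The paralogs *Krt33a* and *Krt33b*, and *Krt81*, *Krt83* and *Krt86*, are similar in sequence, and how reads were divided among them is uncertain.

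*Krt34* was at 5105, 3543, 3171 and 2750.1 CPM in members, 2871, 2284, 2136 and 1696 CPM in inner root sheath spots and 893, 630.4, 406 and 469 CPM in early shaft spots. It was higher in members than in inner root sheath spots of the same slice in all 4 slices, although the ranges overlapped. The log2 fold change was 2.98 ± 0.07 (SE) against early shaft spots (adjusted p = 4.8e-22) and 0.83 ± 0.05 (SE) against inner root sheath spots, below the size set for a call. *Krt86* was at 4791, 2805, 2449 and 2402 CPM against 715, 430.2, 295 and 395 CPM in early shaft spots, and slice 1 lay far above the other 3 slices. Its log2 fold change was 3.13 ± 0.07 (SE) against early shaft spots and 0.92 ± 0.05 (SE) against inner root sheath spots. *Krt84*, a type II hair keratin, was at 369, 310.4, 365 and 312 CPM against 82.6, 58.3, 74.2 and 55.0 CPM in inner root sheath spots. Its ranges were far apart, with a log2 fold change of 2.48 ± 0.07 (SE) (adjusted p = 7.3e-20).

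*Krt31* behaved differently. It was at 446, 421, 248 and 155 CPM in members, 1404, 1433, 929.8 and 451 CPM in inner root sheath spots and 675, 666, 391 and 290.3 CPM in early shaft spots. Within each slice members were the lowest of the 3 sets, with a log2 fold change of -1.58 ± 0.06 (SE) against inner root sheath spots (adjusted p = 3.8e-17) and an uncalled -0.34 ± 0.07 (SE) against early shaft spots. *Krt87* was lower than in inner root sheath spots, at 1337, 1246, 1103 and 965 CPM against 4016, 4049, 3771 and 3340.4 CPM, with no overlap and a log2 fold change of -1.56 ± 0.05 (SE). *Krt32* and *Krt82*, known as keratins of the hair cuticle, were lower, with log2 fold changes of -2.26 ± 0.07 (SE) and -1.69 ± 0.19 (SE). *Krt35*, an early shaft keratin and a gene of the early score, was at 189, 132, 138 and 139 CPM against 474, 471, 469.8 and 414 CPM in all other spots, with no overlap and a log2 fold change of -1.27 ± 0.07 (SE). It lost its call when spots were thinned to 5500 UMIs (-0.93).

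**Figure D4:**
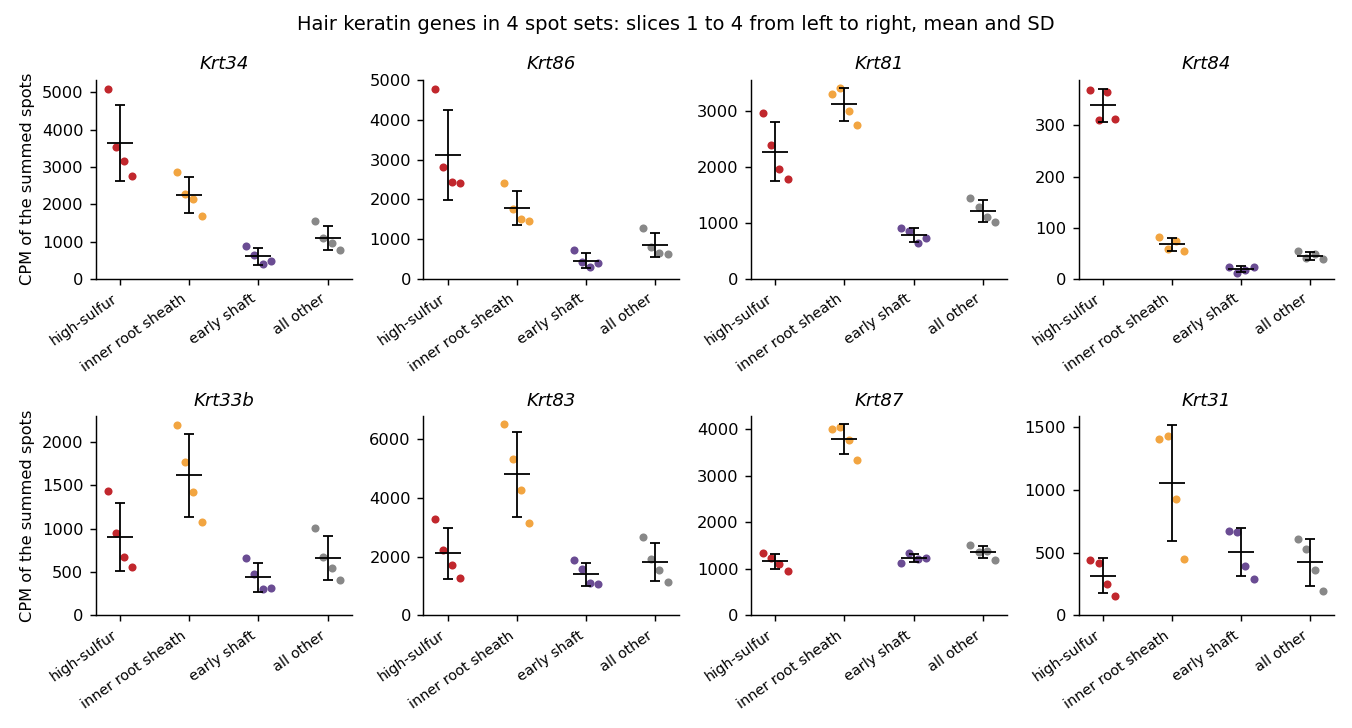
CPM of 8 hair keratin genes (y axis, starting at 0) in high-sulfur, inner root sheath, early shaft and all other kept spots, with a point per slice in the order 1 to 4 and the mean with SD in black. *Krt34*, *Krt86* and *Krt84* are highest in high-sulfur spots, and *Krt83*, *Krt87* and *Krt31* in inner root sheath spots.

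Hair shaft markers outside the KAP genes were higher only in part. Of 11 tested genes, 4 were higher than in all other spots (*Krt86*, *Krt34*, *Krt81* and the receptor gene *Gprc5d*) and 0 lower. Of all genes tested, 4.88% were higher there. The list had a median log2 fold change of 0.77. With libraries scaled by size alone, 2 were called. Against inner root sheath spots 0 were called higher by edgeR or DESeq2 and 4 were called lower (*Krt31*, *S100a3*, *Krt36* and *Krt83*), where 2.99% of all genes tested were lower. The median was -0.76, and 2 genes of the list were higher and 9 lower at an unadjusted p below 0.05 whatever the size. *S100a3*, a calcium-binding protein of the hair cuticle that peptidylarginine deiminases modify, was at 2632, 2589, 2343 and 1974 CPM in members and 7592, 8119, 7886 and 5823 CPM in inner root sheath spots, which did not overlap. The summed level of the list was 18961 ± 5348 CPM in members, 29801 ± 5258 in inner root sheath spots and 10967 ± 1461 in early shaft spots, and *Krt34* had the most UMIs in members.

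RNA of genes for proteins that modify and cross-link the hair was higher only in part. Peptidylarginine deiminases turn arginine into citrulline, and transglutaminases join proteins together. Of 14 genes of this list tested against all other spots, 6 were higher (*Tchhl1*, *Padi1*, *Tgm6*, *Tchh*, *Tgm3* and *Padi4*) and 1 lower (*S100a4*), with a median log2 fold change of 0.85. Of all genes tested there, 4.88% were higher and 5.54% lower. Of 11 tested against inner root sheath spots, *Tchhl1* was called higher and *S100a3* lower by edgeR, with a median of 0.41, and 6 were higher and 4 lower at an unadjusted p below 0.05 whatever the size. Among all genes tested there, 6.91% were called higher and 2.99% lower, so 1 call each way says little about the list.

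*Tchhl1*, a relative of trichohyalin, was at 3069.9, 3393, 3029 and 2743 CPM in members, 625, 648, 655 and 694 CPM in inner root sheath spots and 288, 214, 217 and 219 CPM in early shaft spots. Members were the highest of these sets in every slice, with log2 fold changes of 2.37 ± 0.06 (SE) and 4.06 ± 0.07 (SE) (adjusted p = 2.7e-21 and 7.7e-24). *Padi1* was at 246, 298, 312 and 286 CPM against 72.9, 84.6, 95.2 and 87.3 CPM in all other spots, a log2 fold change of 2.10 ± 0.05 (SE). *Padi3*, a deiminase of trichohyalin, was not called against any set but the matrix spots, and its log2 fold change was -0.76 against inner root sheath spots. *Padi4* met the size for a call narrowly, at 1.00, and lost the call under 8 alternatives, from 0.65 with thinning to 5500 UMIs to 0.99 with the score as a summed share, with 0.90 without slice 2 among them. With libraries scaled by size alone, 4 genes of the list were higher than in all other spots.

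Of 21 genes of cysteine supply and disulfide chemistry tested, 4 were higher than in all other spots (*Chac1*, *Slc1a4*, *Cbs* and *Cth*) and 0 lower. Of all genes tested, 4.88% were higher there. The list had a median log2 fold change of 0.25, and 13 of its genes were higher and 1 lower at an unadjusted p below 0.05 whatever the size. With libraries scaled by size alone, 2 were called and the median was -0.10. Compared with early shaft spots, 7 were higher (*Chac1*, *Cbs*, *Qsox1*, *Slc1a4*, *Cth*, *Glrx* and *Sqor*) and 0 lower, where 13.6% of all genes tested were higher. *Chac1* and *Cbs* were higher than in inner root sheath spots, and *Slc7a11*, which imports cystine, was lower, where 6.91% of all genes tested were higher and 2.99% lower.

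*Chac1* encodes an enzyme that breaks down glutathione, the main cellular thiol. It was at 628, 549, 678 and 681 CPM in members, 97.9, 62.5, 77.1 and 92.4 CPM in all other spots, 127, 60.2, 83.6 and 107 CPM in inner root sheath spots and 48.5, 30.6, 27.3 and 49.2 CPM in early shaft spots. The lowest member value was above the highest value of each other set, with a log2 fold change of 3.30 ± 0.06 (SE) against all other spots (adjusted p = 3.7e-29). *Cbs*, which starts the transsulfuration path to cysteine, was at 74.2, 100.2, 88.0 and 79.0 CPM against 29.7, 17.2, 25.9 and 24.8 CPM in early shaft spots, a log2 fold change of 2.16 ± 0.13 (SE). In the comparison with inner root sheath spots it was 1.04, and without slice 2 it fell short of a call at 0.91. *Qsox1*, a sulfhydryl oxidase that makes disulfide bonds, was at 124, 117, 142 and 143 CPM against 38.6, 36.1, 32.8 and 42.6 CPM in early shaft spots, a log2 fold change of 2.15 ± 0.09 (SE). *Slc7a11* was at 9.0, 13.3, 13.8 and 13.3 CPM against 36.1, 37.6, 43.1 and 47.9 CPM in inner root sheath spots, a log2 fold change of -1.59 ± 0.14 (SE).

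Of 14 desmosome genes tested, which hold keratinocytes together, 3 were higher than in all other spots (*Dsc2*, *Ppl* and *Evpl*) and 0 lower. Of all genes tested, 4.88% were higher there. The list had a median log2 fold change of 0.54. With libraries scaled by size alone only *Dsc2* was called, and the median was 0.19. *Dsc2* and *Dsg3* were higher than in inner root sheath spots, and *Dsg1a* and *Dsg1b* were lower, where 6.91% of all genes tested were higher and 2.99% lower. The desmosomal cadherin *Dsc2* was at 408, 325, 345 and 308 CPM in members against 50.9, 36.6, 37.3 and 33.4 CPM in all other spots and 69.9, 44.4, 57.6 and 53.6 CPM in inner root sheath spots. All slices were far apart, with log2 fold changes of 3.49 ± 0.05 (SE) and 2.78 ± 0.07 (SE) (adjusted p = 9.3e-32 and 1.5e-20). Another cadherin, *Dsg1a*, was at 162, 183, 176 and 188 CPM against 484, 502, 477 and 446 CPM in inner root sheath spots, a log2 fold change of -1.28 ± 0.06 (SE). *Evpl*, at 1.02 against all other spots, lost its call under 8 alternatives, with slice 1 (0.93) or slice 2 left out among them and 0.67 with scaling by size alone.

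Of 10 tested genes for the removal of the nucleus and organelles, 0 were called against all other spots by edgeR or DESeq2, with a median log2 fold change of 0.22, and 5 were higher and 1 lower at an unadjusted p below 0.05 whatever the size. Compared with early shaft spots, 4 were higher, among them *Casp14*, *Map1lc3a* and *Dnase1l2*, and 0 lower, where 13.6% of all genes tested were higher. The median was 0.75. With libraries scaled by size alone, 2 were higher there and the median was 0.40. *Dnase1l2*, a nuclease of cornifying keratinocytes, was at 257, 208, 206 and 187 CPM in members, 122, 114, 100.8 and 109 CPM in early shaft spots and 365, 331, 287 and 266 CPM in inner root sheath spots. Its level in members was between the other sets, above early shaft spots by 1.30 ± 0.07 (SE) and below inner root sheath spots by an uncalled -0.39 ± 0.06 (SE). Against early shaft spots *Dnase1l2* lost its call with scaling by size alone (0.94) and with members as the top 15% (0.93). Against all other spots, 0 of 16 ubiquitin and proteasome genes and 0 of 13 mitochondrial genes were called by edgeR with TMM scaling or by DESeq2, with medians of 0.00 and -0.22. With libraries scaled by size alone, 1 mitochondrial gene was called lower, and the medians were -0.34 and -0.57. At an unadjusted p below 0.05 whatever the size, 3 ubiquitin and proteasome genes were higher and 3 lower, and 9 mitochondrial genes were lower. Of 84 ribosomal protein genes 1 was called lower, the muscle paralog *Rpl3l*, while 69 were lower and 0 higher at an unadjusted p below 0.05 whatever the size. The median was -0.19, or -0.54 with libraries scaled by size alone, and the list held 16.1% of UMIs in members and 23.2% in all other spots.

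Among 18 transcription factors of the hair lineage tested against early shaft spots, *Lef1*, *Msx1*, *Sox21*, *Grhl3* and *Trps1* were lower and *Nfib*, *Prdm1*, *Vdr* and *Bcl11b* higher, where 13.6% of all genes tested were higher and 5.28% lower. *Lef1*, which acts with β-catenin in the early shaft, was at 8.14, 12.8, 12.4 and 17.6 CPM against 93.3, 114, 128 and 126 CPM in early shaft spots. The sets were far apart, with a log2 fold change of -2.85 ± 0.12 (SE) (adjusted p = 1.3e-16), and *Lef1* was lower also against all other and inner root sheath spots, at -1.64 and -1.63. *Sox21*, a factor of the hair shaft cuticle, was at 18.4, 14.2, 17.8 and 17.1 CPM against 103, 108, 127 and 117 CPM, a log2 fold change of -2.39 ± 0.11 (SE). *Nfib* was at 204, 211, 245 and 257 CPM against 99.9, 76.5, 85.6 and 108 CPM, a log2 fold change of 1.66 ± 0.08 (SE). *Foxn1* and *Msx2*, both regulators of hair keratin genes, were lower than in inner root sheath spots, at -1.21 and -1.30. *Trps1* lost its call without slice 1, 2 or 3 (lowest in size -0.72), and *Bcl11b* without slice 3 (0.85). Scaled by library size alone, 1 factor was higher and 8 lower than in early shaft spots.

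Outside the KAP genes, 12 genes with large rises against all other spots and at least 50 CPM in members were picked after the values had been seen. They were *Crisp1*, *Dsc2*, *Chac1*, *Krt84*, *Tchhl1*, *Tpd52l1*, *Otop2*, *Hmox1*, *Sprr2h*, *Serpinb2*, *Lrrc15* and *Mme*. *Crisp1*, which encodes a secreted cysteine-rich protein, was at 217, 137, 138 and 110.0 CPM against 22.4, 13.6, 11.8 and 8.22 CPM, with slice 1 highest in both sets and no overlap. Its log2 fold change was 3.79 ± 0.07 (SE) (adjusted p = 3.8e-29). The proton channel gene *Otop2* was at 124, 149, 137 and 137 CPM against 23.3, 20.4, 25.7 and 25.9 CPM, a log2 fold change of 2.88 ± 0.08 (SE). *Hmox1*, which encodes a heme-degrading enzyme, was at 147, 155, 132 and 137 CPM against 30.8, 26.8, 30.1 and 30.3 CPM, a log2 fold change of 2.63 ± 0.07 (SE). The 4 slices agreed closely for both genes.

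*Lrrc15*, which encodes a membrane protein with leucine-rich repeats, was at 1650.3, 1830.1, 1906 and 1891 CPM against 385, 370.2, 465 and 475 CPM, a log2 fold change of 2.46 ± 0.06 (SE). *Sprr2h*, a small proline-rich protein gene of the cornified envelope family, and the serpin gene *Serpinb2* rose by 2.61 ± 0.07 (SE) and 2.46 ± 0.07 (SE). *Tpd52l1* and the peptidase gene *Mme* rose by 2.97 ± 0.06 (SE) and 2.45 ± 0.10 (SE). The enzyme genes *Gpx2* and *Acp7* were also chosen after their values were seen, from the comparison with early shaft spots. *Gpx2*, a glutathione peroxidase, was at 188, 225, 241 and 227 CPM against 21.3, 12.8, 14.2 and 13.95 CPM, and *Acp7*, an acid phosphatase, at 284, 296, 324 and 232 CPM against 22.9, 22.9, 18.99 and 15.1 CPM. Both sets were apart in every slice, with log2 fold changes of 4.13 ± 0.11 (SE) and 4.16 ± 0.09 (SE).

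The genes that were lowest in members depended on the comparison. Against all other spots they were muscle genes (*Mybpc1*, *Apobec2*, *Ldb3*, *Ttn*, *Cox6a2*, *Myl1*, *Myh1* and *Des*), with log2 fold changes from -3.14 to -2.59. Against early shaft spots they were *Mlana*, *Trpm1*, *Dct*, *Ptgds*, *Slc7a5*, *Tyrp1*, *Syt4* and *Pmel*, from -3.62 to -2.90, most of them pigment cell genes. Against matrix spots, where 11% of genes were lower, they included *Mt2*, *Mt1*, *Mycn*, *Msx1*, *Saa3*, *Cldn10* and *Aurkb*, from -3.55 to -2.69. The metallothionein gene *Mt1* was at 91.3, 92.5, 91.9 and 100.9 CPM in members and 1255, 1269.6, 1109.9 and 1116 CPM in matrix spots.

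The lowest genes against inner root sheath spots were *Krt32*, *Kcnk16*, *Tubb3*, *Mt4*, *Nkd2*, *Dusp2*, *Sp6* and *Ctps*, from -2.26 to -1.87. *Mt4*, a metallothionein of differentiating stratified epithelia, was at 544, 342, 245 and 201 CPM against 2500.0, 1660.5, 1086 and 669 CPM, with slice 1 highest in both sets. The transcription factor gene *Sp6* was at 66.9, 80.1, 94.9 and 93.4 CPM against 284, 362, 374 and 344 CPM. *Ctps*, which encodes CTP synthetase, was at 171, 158, 147 and 130.3 CPM against 689, 640.4, 662 and 468 CPM. For these genes the member values lay below the inner root sheath values in all 4 slices, with adjusted p values of 3.3e-18, 2.2e-17 and 2.8e-18 (edgeR).

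Markers of the layers around the shaft were present in members, and their part in the results was not tested. In sums over spots, more cells of a type and more RNA per cell cannot be told apart. Of 8 inner root sheath genes, 4 were higher than in all other spots (*Krt26*, *Tchh*, *Krt27* and *Krt72*) and 0 lower, with a median of 0.92. Among all genes tested there, 4.88% were higher. *Krt72* lost its call with scaling by size alone (0.75). The summed level of the 8 genes was 56430 ± 5571 CPM in members against 33621 ± 1717 in all other spots and 77621 ± 2168 in inner root sheath spots. *Tchh*, which also marks the medulla of the shaft, had the most UMIs, at 30359, 28008, 22821 and 25527 CPM in members. All 5 medulla genes (*Tchh*, *Krt75*, *Gprc5d*, *Padi3* and *Foxq1*) are also in other lists. Of these, 4 were higher than in all other spots, or 1 when libraries were scaled by size alone. Against inner root sheath spots 0 of 4 medulla genes were called by edgeR or DESeq2 (1 higher and 2 lower at an unadjusted p below 0.05 whatever the size).

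Outer root sheath genes were mostly higher in members than in the deeper sets, and so were markers of some other tissues. All 9 genes tested were higher than in early shaft spots, where 13.6% of all genes tested were higher, with a median log2 fold change of 2.02. Against matrix spots 8 of 10 were higher, where 14.5% of all genes tested were. With libraries scaled by size alone, 5 were higher and 1 lower than in matrix spots. Against inner root sheath spots 7 of 9 were higher, where 6.91% of all genes tested were. The median was 1.14, and 4 were higher with libraries scaled by size alone. Against all other spots 3 of 10 were higher (*Lgr5*, *Krt5* and *Sox9*), where 4.88% of all genes were, or 0 with scaling by size alone. Spots 1 grid step from a member held more of the outer root sheath list in each slice, at 7675 ± 663 CPM against 7099 ± 852 in members. Also higher than in inner root sheath spots were 6 of 10 epidermal, 4 of 4 Schwann cell, 3 of 8 fibroblast, 3 of 6 immune and 3 of 6 sebaceous gland genes. These counts were 6, 3, 2, 1 and 3 with scaling by size alone. Of the sebaceous gland genes 1 was lower, and the part of these markers was not tested. *Krt14*, the basal keratin, was at 2853, 3241, 3705 and 3605 CPM in members, 414, 426, 531 and 553 CPM in inner root sheath spots and 408, 300.2, 321 and 417 CPM in early shaft spots. Members were the highest of the sets just named in each slice, with log2 fold changes of 2.95 ± 0.05 (SE) and 3.57 ± 0.08 (SE) (edgeR, adjusted p = 2.8e-24 and 2.8e-22). The companion layer keratin *Krt6a* was at 522, 563, 614 and 704 CPM against 79.3, 63.4, 69.4 and 90.3 CPM in early shaft spots, a log2 fold change of 3.34 ± 0.07 (SE). All 4 companion layer genes tested were higher than in early shaft spots, and 3 of 4 than in all other spots, or 3 and 1 of 4 with libraries scaled by size alone.

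Markers of dividing cells and of pigment cells were low in members. Of 12 proliferation genes, 0 were higher and 5 lower than in all other spots (*Hmgb2*, *Cdk1*, *Birc5*, *Mki67* and *Stmn1*), where 5.54% of all genes tested were lower. The median of the list was -0.91, and 11 of its genes were lower with libraries scaled by size alone. *Mki67* was at 31.7, 42.1, 38.1 and 47.5 CPM against 94.2, 109, 117 and 103 CPM, and lost its call without slice 3 at -0.99. Against inner root sheath spots 0 of 12 were called by edgeR or DESeq2, with a median of 0.04, and 1 was higher at an unadjusted p below 0.05. Of 8 melanocyte genes, 7 were lower than in early shaft spots, with a median of -3.06, and *Mitf* was higher. Of all genes tested there, 5.28% were lower and 13.6% higher. *Dct* was at 70.7, 46.7, 38.6 and 50.7 CPM against 618, 592, 614 and 698 CPM, a log2 fold change of -3.25 ± 0.10 (SE). The summed level of the melanocyte list was 270 ± 50.9 CPM in members, with *Mitf* holding the most UMIs, and 2179 ± 245 in early shaft spots.

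Markers of other tissue differed by list, while 4.88% of all genes tested were higher and 5.54% lower than in all other spots. Skeletal muscle genes were lower than in all other spots in 10 of 10 cases, with a summed level of 1191 ± 551 CPM against 7581 ± 1029 and *Acta1* the most abundant. Of 10 epidermal genes, 9 were lower than in all other spots and 8 were higher than in early shaft spots, at 1045 ± 275 CPM in members, 3763 ± 567 in all other spots and 569 ± 80.5 in early shaft spots. Fibroblast genes were at 3214 ± 553 CPM in members and 10586 ± 1108 in all other spots, where 4 of 8 were lower, or 7 with libraries scaled by size alone. Of 8 sebaceous gland genes tested, 4 were lower and *Mc5r* was higher than in all other spots. *Mc5r*, a melanocortin receptor gene of sebocytes, was at 56.6, 74.6, 83.0 and 78.5 CPM against 21.97, 23.5, 28.6 and 31.6 CPM, with the summed list at 432 ± 109 CPM against 825 ± 64.9. Adipocyte, endothelial, Schwann cell, immune and dermal papilla lists had at most 1 gene called higher than in all other spots. The adipocyte list had a median of 0.45 there, with 4 of 8 genes higher and 1 lower at an unadjusted p below 0.05 whatever the size. Compared with early shaft spots, the genes called higher were 5 of 8 fibroblast, 4 of 7 adipocyte, 4 of 6 immune, 4 of 6 sebaceous gland, 3 of 6 Schwann cell and 2 of 7 endothelial genes, where 13.6% of all genes tested were higher. These counts were 1, 1, 3, 4, 2 and 1 with libraries scaled by size alone. Of the Schwann cell genes 2 were lower there, and of 4 dermal papilla genes 3 were lower and 0 higher, where 5.28% of all genes tested were lower. Of 10 skeletal muscle genes 1 was lower there and 0 higher, or 8 lower with scaling by size alone. The part of these markers in the differences from early shaft spots was not tested. All markers of these types had UMIs in members except 1 companion layer gene and 1 dermal papilla gene, which were at 0 there in all 4 slices.

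KAP RNA fell off within 2 grid steps of a member, and the drop at 1 step follows in part from how members were chosen. The score used genes of the KAP clusters, and every other spot of a slice scored below its members. The values by grid step are therefore a description, and differences between steps were not tested. The summed level of KAP genes outside the score was 121349 ± 17359 CPM in members, 38501 ± 10343 at 1 step, 16137 ± 4271 at 2 steps and 10268 ± 2765 at 3 steps. Hair shaft markers did not follow this course, with 18961 ± 5348 CPM in members, 20341 ± 4889 at 1 step and 12307 ± 2525 at 2 steps. Melanocyte markers were highest at 2 steps, at 881 ± 55.4 CPM, and proliferation markers at 3 steps, at 1426 ± 111 CPM. Spots at 5 or more steps, 461 in all, are few and mixed.

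**Figure D5:**
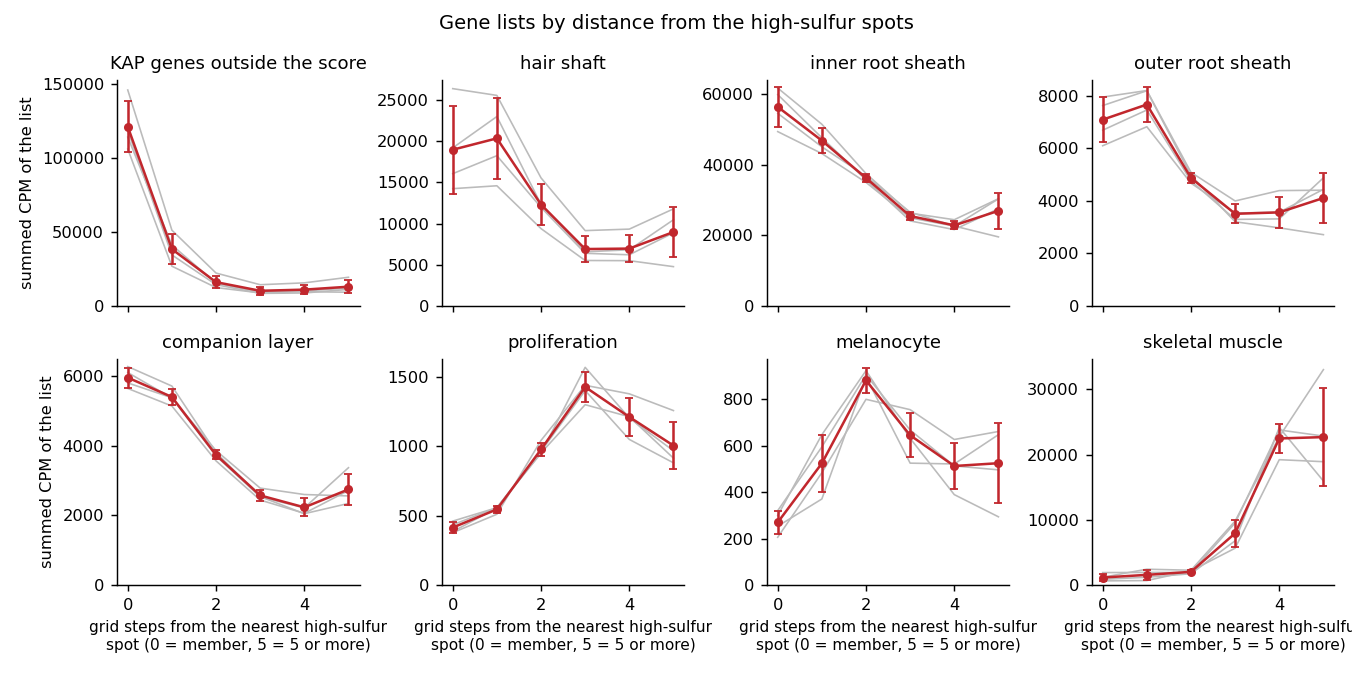
Summed CPM of 8 gene lists (y axes, starting at 0) in spots at each number of grid steps from the nearest high-sulfur spot (x axis, where 0 is the members and 5 stands for 5 or more), with slices in gray and the mean with SD in red. KAP genes drop at the first step, hair shaft genes after the first step, and melanocyte and proliferation genes peak at 2 and 3 steps. The drop of KAP genes follows in part from the choice of members by genes of the KAP clusters.

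Members also varied among themselves, and this is given as a description, since the score ordered them. Members above the median score of their slice held *Krtap4-1* at 5454 ± 681 CPM and *Krtap6-1* at 5721 ± 342 CPM, against 2341 ± 199 and 2428 ± 506 CPM in members below it. *Krt34* was at 4018 ± 1244 CPM above and 3230 ± 818 below, higher above in 4 of 4 slices. *Krt83* and *Krt31* went the other way, at 1856 ± 934 and 279 ± 140 CPM above and 2420 ± 772 and 360 ± 138 below, in 4 of 4 slices. *Krtap11-1* did so too, at 794 ± 288 CPM above and 1046 ± 159 below. *Krt27*, a keratin of the inner root sheath, was at 11166 ± 1234 CPM above and 8816 ± 1061 below, and *Krt14* at 2864 ± 722 above and 3877 ± 259 below.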

How the data were processed

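Visium libraries of mouse dorsal skin were deposited by the authors as UMI counts per gene and spot for 4 slices. Per the submitters' processing notes, Space Ranger 2.0.1 and the mm10 build were used. Deposited spots numbered 6420, and 6411 with at least 250 genes were kept. The slices held 26910422, 24128004, 21384253 and 19393026 UMIs. All spots lay over tissue, and 750 barcodes shared by the 4 slices are positions of the fixed slide grid, not shared cells.

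The members and all gene lists were chosen with earlier results of these data known. For each comparison, counts were summed per slice and spot set and fitted in edgeR 4.0.16 (R 4.3.3; quasi-likelihood, TMM scaling, filterByExpr, slice as a block). Genes were called at an adjusted p (Benjamini-Hochberg over all genes tested) below 0.05 and a log2 fold change of at least 1 in size. Genes that chose the spots of either set were left out of calls. The 4 slices were treated as technical replicates, sections were not separated by mouse, and p-values measure only the spread between slices. Both sums of a slice come from the same sections, so they were paired. The correlation of their deviations from the set means was 0.25, 0.16, 0.06 and 0.17 in slices 1 to 4 against all other spots. Distances, UMIs and genes per spot were compared by an exact two-sided sign-flip test over slices.

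Named genes were the 10 highest and 8 lowest log2 fold changes among called genes that changed the same way in 4 of 4 slices and reached 50 CPM. List members were added by level or where 5 or fewer were called, and the genes described as chosen after their values were seen were added outside that rule. Alternatives were DESeq2 1.42.0, other scalings, filters, thresholds, score formulas, thinning to 5500 UMIs and leaving out each slice. KAP classes follow family numbers, since no protein sequences were used here. Promoters came from the RefSeq table of GRCm38.p6 and gene positions from GENCODE M21. Python 3.11.15, numpy 2.4.6, scipy 1.17.1 and pandas 2.3.3 were used. 1 gene of the early shaft score and expression of CreERT were not analysed here, and some genes that the naming rule or the lists hold are not reported here.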

Additional observations from a re-analysis of the deposited data

Results flagged for a closer look

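Among 188 groups of 4 slice values that were examined, 11 held a slice that lay far from the other slices, and chance flags about 1 in 20 groups. Of these, 6 were in slice 1, 0 in slice 2, 3 in slice 3 and 2 in slice 4. In high-sulfur spots of slice 1, *Krt86* was at 4791 CPM (the other slices at 2402 to 2805), *Krtap8-1* at 12353 CPM (7389 to 8114), *Krt35* at 189 CPM (132 to 139) and *Evpl* at 360.5 CPM (276 to 288). Slice 1 was low in *Slc7a11*, at 9.0 CPM (13.3 to 13.8), and in the score gene *A030005K14Rik*, at 372 CPM (481 to 482). In slice 3 the score genes *Gm11596* and *Gm11563* were high, at 1386 CPM (872 to 935) and 4502 CPM (3689.8 to 3789). In slice 3 the inner root sheath spots lay 4.61 grid steps from the epidermal spots, and 5.17 to 5.26 steps in the other slices. In slice 4 *Krtap19-9b* was low, at 4594 CPM (5333 to 5417), and *Mt1* was high, at 100.9 CPM (91.3 to 92.5).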

How the results depend on the processing

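Scaling by library size alone moved the most counts: 363 genes were then higher and 1500 lower than in all other spots, 934 higher and 1482 lower than in early shaft spots, and 2288 lower than in matrix spots. Thinning to 5500 UMIs, which leaves fewer counts, called 929 genes higher and 375 lower than in early shaft spots, 796 lower than in matrix spots and 422 higher than in inner root sheath spots. Without the filter on low counts, 888 genes were lower than in early shaft spots. With epidermal spots as the top 5%, the grid distance differences were -0.123 (all other spots), -1.90 (early shaft) and -1.15 (inner root sheath), and with members as the top 5% the difference in genes per spot was -305. Signs turned for values that were not called: *Krt31* against all other spots with the top 15% (0.00306), *Krtap26-1* against inner root sheath spots with the top 5% (0.13), *S100a3* against all other spots by library size alone (-0.20) and by library size without hair genes (-0.0137), and *Krtap11-1* against all other spots under these scalings (-0.29 and -0.10), with the top 5% (-0.0320) and when 1 slice was left out (-0.0137, without slice 1, to 0.109, without slice 3). The causes were not tested. Of the other alternatives, 188 counts and differences and 3791 gene values stayed on their side of the threshold or within the set range, 98 gene values fell below it and 7 rose past it.

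Without any 1 slice, genes higher and lower ranged from 636 to 686 and 655 to 734 (all other spots), 1418 to 1544 and 580 to 632 (early shaft), 1645 to 1731 and 1227 to 1325 (matrix), and 685 to 753 and 306 to 354 (inner root sheath). Distance differences ranged from -0.359 to -0.296, -2.26 to -2.14, -2.83 to -2.67 and -1.48 to -1.40 in the same order, genes per spot from -220 to -171 and log2 UMIs from -0.09 to -0.06.

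Without the replicate block, 658 genes were higher and 719 lower than in all other spots, 1462 and 563 than in early shaft spots, 1629 and 1220 than in matrix spots, and 709 and 308 than in inner root sheath spots. Among named genes only *Trps1* against early shaft spots lost its call without the block (-0.98). With 4 slices, genes at a few CPM such as *Krt39* rest on few UMIs.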

Other observations

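KAP genes of the chromosome 11 cluster and of the chromosome 16 cluster differed in how they stood against inner root sheath spots: 18 of 18 tested genes on chromosome 11 were higher, and 16 of 22 on chromosome 16 were higher and 1, *Krtap11-1*, lower. This difference was not tested, and the clusters hold different families.

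Of 8 adipocyte genes, *Fabp4*, a fatty acid carrier, was higher than in all other spots and *Car3*, a carbonic anhydrase, was lower, with a summed level of 2536 ± 100.8 CPM against 2055 ± 19.2, and the other 6 were not called. With libraries scaled by size alone, 0 adipocyte genes were higher and 1 was lower. Of 8 immune genes 5 were lower than in all other spots (*Cd207*, *Cd74*, *H2-Eb1*, *H2-Ab1* and *H2-Aa*) and of 8 dermal papilla genes 3 (*Crabp1*, *Corin* and *Fgf7*), and 0 of each were higher. Among all genes tested there, 5.54% were lower. Both counts were 6 with libraries scaled by size alone, and DESeq2 called 2 dermal papilla genes lower. Of 7 endothelial genes 0 were called by edgeR with TMM scaling or by DESeq2, and 1 was lower with libraries scaled by size alone. At an unadjusted p below 0.05 whatever the size, 2 endothelial genes were lower. Members lay 1.62 grid steps from the nearest inner root sheath spot on average, 2.17 from the nearest early shaft spot and 2.82 from the nearest matrix spot.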
